A study of Homo sapiens with 12 samples.

Results

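Mitochondrial tRNAs are cut out of long transcripts of the mitochondrial genome and then trimmed, extended and chemically modified by enzymes that are encoded in the nucleus. The set described here holds 10 such genes, TRMT10C, HSD17B10, ELAC2, TRNT1, TRIT1, MTO1, GTPBP3, TRMU, PUS1 and PNPT1, picked by function and matched by symbol in the deposited table of 52859 usable genes. Each of the 10 was among the 16051 genes with enough reads for testing. The RNA came from MDA-MB-231, an established triple-negative breast cancer line, collected on day 2 after lipid transfection with 20 nM of a locked nucleic acid (LNA), a short stabilised oligonucleotide that pairs with an RNA of matching sequence. There were 4 groups of 3 libraries, which received the LNA mtAsn-1 or the LNA mtAsn-2 (both named for the mitochondrial asparagine tRNA), the LNA mtLys (named for the mitochondrial lysine tRNA) or a control LNA, so the cells of every library analysed were transfected. By its title, the study concerned the effect of a mitochondrial tRNA on transcription in the nucleus. The sequences of the LNAs were not used here, and nothing in the labels says whether the 3 libraries of a group were grown as separate cultures. The spread behind each p-value may therefore be technical.

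As background, mitochondrial RNase P cuts the 5′ end of each tRNA. It consists of TRMT10C, a methyltransferase that binds the precursor, HSD17B10, a dehydrogenase that also acts in isoleucine breakdown, and PRORP, the nuclease. ELAC2, or RNase Z, cuts the 3′ end, and TRNT1 then adds the CCA end that carries the amino acid. Among the modification enzymes, MTO1 and GTPBP3 together build the taurine-containing group on the wobble uridine, TRMU puts sulphur on the same uridine, TRIT1 adds an isopentenyl group to an adenosine beside the anticodon, and PUS1 turns uridines into pseudouridines. PNPT1 encodes polynucleotide phosphorylase, which degrades mitochondrial RNA together with the helicase SUPV3L1. ELAC2, TRNT1, TRIT1 and PUS1 also serve tRNAs outside mitochondria.

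The genes of the tRNAs after which the LNAs were named are shown first, because they are the substrates on which several of these enzymes act. They are given 5′ to 3′ with the anticodon in capitals, from the GENCODE release 29 transcripts at the hg38 coordinates of the table. MT-TN lies on the minus strand of the mitochondrial genome at 5657 to 5729 and MT-TK on the plus strand at 8295 to 8364.
MT-TN (asparagine): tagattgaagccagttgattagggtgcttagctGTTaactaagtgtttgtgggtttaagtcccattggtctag
MT-TK (lysine): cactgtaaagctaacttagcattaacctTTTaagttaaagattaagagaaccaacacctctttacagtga
The lysine anticodon opens with T, the wobble uridine that MTO1, GTPBP3 and TRMU modify. The asparagine anticodon opens with G, which QTRT1 and QTRT2 exchange for queuosine. Neither gene ends in CCA, the end that TRNT1 adds.

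The RefSeq promoter table (GRCh38.p14, 250 bases before to 50 bases after the start) held entries for 7 of the 10 genes, TRMT10C, HSD17B10, ELAC2, TRNT1, GTPBP3, TRMU and PNPT1. The motif CCGGAAGT, bound by factors of the ETS family, was searched on both strands and was present in 4 of the 7, TRMT10C, ELAC2, TRNT1 and TRMU. These 7 genes had 9 promoter entries, as HSD17B10 and GTPBP3 had 2 each, so 4 of 9 entries held it. Of all 35097 promoters of that length, 4.14% held it, and these were not matched for GC content. The YY1 motif AAGATGGCG, also searched on both strands, was in 0 of the 7, against 1.75% of all promoters. The 2 motifs do not contain each other. These matches describe letters in the windows, and binding was not measured. The 4 promoters with the motif are printed without the last 30 of the 300 bases, with the motif or its reverse complement in capitals.
TRMU (chr22:46335464-46335733, plus strand): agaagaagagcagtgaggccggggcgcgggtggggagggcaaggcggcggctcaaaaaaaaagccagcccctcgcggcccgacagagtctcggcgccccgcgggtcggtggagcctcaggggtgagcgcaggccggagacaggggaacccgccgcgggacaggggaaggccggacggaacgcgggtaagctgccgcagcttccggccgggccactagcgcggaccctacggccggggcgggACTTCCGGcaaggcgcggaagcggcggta
TRNT1 (chr3:3126690-3126959, plus strand): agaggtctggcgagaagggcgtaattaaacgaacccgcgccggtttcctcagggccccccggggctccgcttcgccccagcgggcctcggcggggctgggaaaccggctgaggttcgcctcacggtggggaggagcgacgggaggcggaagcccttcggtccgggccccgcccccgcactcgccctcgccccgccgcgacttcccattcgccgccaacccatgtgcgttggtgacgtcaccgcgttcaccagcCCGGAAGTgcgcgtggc
ELAC2 (chr17:13018008-13018277, minus strand): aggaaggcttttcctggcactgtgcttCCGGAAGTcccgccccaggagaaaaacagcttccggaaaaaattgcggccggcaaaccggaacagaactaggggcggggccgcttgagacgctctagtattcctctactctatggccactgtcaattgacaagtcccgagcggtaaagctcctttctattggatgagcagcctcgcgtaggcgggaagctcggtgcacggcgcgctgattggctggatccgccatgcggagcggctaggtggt
TRMT10C (chr3:101561618-101561887, plus strand): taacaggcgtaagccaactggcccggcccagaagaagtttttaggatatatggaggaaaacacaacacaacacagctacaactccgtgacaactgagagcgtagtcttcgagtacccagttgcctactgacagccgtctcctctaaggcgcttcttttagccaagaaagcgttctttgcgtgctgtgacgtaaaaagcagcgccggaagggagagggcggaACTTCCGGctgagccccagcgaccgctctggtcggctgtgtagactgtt
The motif began -9 from the start in TRMU and -29 in TRMT10C, both on the strand opposite to the gene. It began at -223 in ELAC2 and 3 bases after the start in TRNT1, on the strand of the gene. Of the genes with the motif, TRNT1 and TRMU were lower with each LNA than with the control LNA. ELAC2 was higher with mtAsn-2 and mtLys, and TRMT10C was higher with mtAsn-2. Of those without it, GTPBP3 was lower with each LNA, HSD17B10 was lower with mtAsn-2 and mtLys, and PNPT1 was higher with mtAsn-2. A link of the motif to these changes was not tested.

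Libraries held 17978825 to 37708993 counted reads, and edgeR's common coefficient of variation between libraries of a group was low, at 0.0421. This spread may be technical. Of the markers listed as high in the line, VIM stood at 2954 to 3879 CPM. CPM is the reads of a gene relative to the reads of its library on all tested genes, scaled by TMM factors. Of the markers listed as low or absent, ESR1 stayed at or below 0.286 CPM and CDH1 at or below 0.523 CPM. EPCAM stood at 3.45 to 6.21 CPM, and ERBB2 was not low, at 89.4 to 119.6 CPM. Among markers of other cells, PTPRC of leukocytes stayed at or below 0.343 CPM, DCN of fibroblasts was at 0 and CDH5 of endothelium at or below 0.0325 CPM, while COL1A1 stood at 33.2 to 60.1 CPM. Other markers of these cells were also present, with CD14 at 2.08 to 3.95 CPM, PDGFRB at 6.78 to 12.2 CPM and PECAM1 at 9.9 to 18.0 CPM. Many genes changed in every comparison with control: 48.5% of genes passed an adjusted p under 0.05 for mtAsn-1, 51.1% for mtAsn-2 and 48.5% for mtLys. Fold changes below are log2, with the standard error (SE) and the Benjamini-Hochberg adjusted p over all tested genes from edgeR's quasi-likelihood test. The 3 comparisons with control share the same control libraries.

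The genes of the tRNAs after which the LNAs were named gave little information. MT-TN (TRNN in the table) had 5, 2 and 2 reads in the mtAsn-1 libraries, 1, 1 and 3 in the mtAsn-2 libraries and 4, 5 and 1 in the mtLys libraries, against 3, 6 and 2 in the control libraries, too few for the test, and the groups overlapped. MT-TK (TRNK) stood at 6.21, 7.72 and 9.67 CPM in the mtAsn-1 libraries, 8.62, 10.2 and 6.61 CPM in the mtAsn-2 libraries and 7.55, 8.29 and 7.37 CPM in the mtLys libraries, against 6.8, 5.88 and 5.93 CPM in the control libraries. With mtLys the log2 fold change was 0.32 ± 0.154 (adjusted p = 0.0979). Libraries of this kind count fragments of transcripts of ordinary length, so a read on a tRNA gene can come from an uncut precursor.

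Per length, the 10 genes spanned a wide range of levels. In control libraries HSD17B10 was highest at 60.5 ± 3.8 CPM per kilobase of annotated exon (SD, n = 3), followed by ELAC2 at 34.2 ± 0.624, GTPBP3 at 24.0 ± 1.61 and TRMT10C at 19.0 ± 0.263. TRMU at 9.05 ± 0.316 and PUS1 at 8.66 ± 0.154 were close neighbours, with PNPT1 below them at 7.19 ± 0.259 and TRIT1 at 4.55 ± 0.0837. TRNT1 at 3.21 ± 0.117 and MTO1 at 3.19 ± 0.16 were the lowest and did not differ beyond their spread. TRNT1, 9th in the control libraries, was last with each LNA. With mtAsn-1 it stood at 2.25 ± 0.244 CPM per kilobase beside 2.81 ± 0.119 for MTO1 in the same libraries, with mtAsn-2 at 2.69 ± 0.0386 beside 2.8 ± 0.0949, and with mtLys at 2.03 ± 0.268 beside 2.92 ± 0.0468. The annotated length merges the exons of every isoform, so a gene with long unused exons reads low on this scale.

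**Figure D1:**
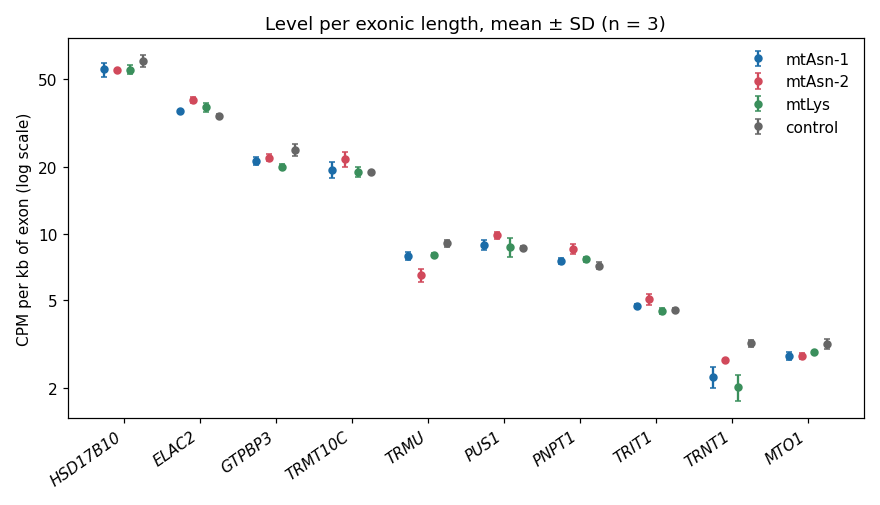
Level per annotated exon length of the 10 genes, as CPM per kilobase on a log axis, for mtAsn-1, mtAsn-2, mtLys and control LNA, with points at the mean and bars of the SD over 3 libraries. HSD17B10 is highest at 60.5 ± 3.8 in control libraries and MTO1 lowest at 3.19 ± 0.16.

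Of the subunits of RNase P, TRMT10C was higher with mtAsn-2 and HSD17B10 was slightly lower. TRMT10C (chromosome 3, 101561868 to 101566446, plus strand of hg38) stood at 37.4, 32.0 and 36.8 CPM in the mtAsn-1 libraries, 42.9, 37.9 and 37.2 CPM in the mtAsn-2 libraries and 33.7, 36.6 and 33.1 CPM in the mtLys libraries, against 35.1, 34.2 and 34.3 CPM in the control libraries. The mtAsn-2 libraries had the highest mean of the 4 groups and lay above every control library, while the mtAsn-1 and mtLys libraries overlapped the controls. The change was 0.19 ± 0.0621 for mtAsn-2 (adjusted p = 0.0121), 0.04 ± 0.0653 for mtAsn-1 (adjusted p = 0.626) and -0.00183 ± 0.063 for mtLys (adjusted p = 0.986). The mtAsn-2 call was lost without mtAsn-2 replicate 1 (then at adjusted p = 0.108).

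HSD17B10 (chromosome X, 53431258 to 53434376, minus strand of hg38) stood at 54.5, 48.9 and 56.5 CPM in the mtAsn-1 libraries, 53.5, 53.1 and 52.4 CPM in the mtAsn-2 libraries and 50.3, 54.5 and 54.7 CPM in the mtLys libraries, against 55.0, 62.2 and 57.5 CPM in the control libraries. Every mtAsn-2 and mtLys library lay below every control library, and the highest mtAsn-1 library overlapped the lowest control library. The log2 fold change was -0.12 ± 0.0566 for mtAsn-1 (adjusted p = 0.0711), -0.14 ± 0.0548 for mtAsn-2 (adjusted p = 0.0369) and -0.13 ± 0.0549 for mtLys (adjusted p = 0.0438). These calls sat at the threshold. That for mtAsn-2 was lost without control replicate 2 (then at adjusted p = 0.269), control replicate 3 (0.0549), mtAsn-2 replicate 1 (0.069), mtAsn-2 replicate 2 (0.0901), mtAsn-2 replicate 3 (0.0831) or mtLys replicate 2 (0.0566), with RLE factors (0.0503), with DESeq2 (0.0937), with no low-count filter (0.125) and with the compared groups alone (0.0599). That for mtLys was lost without control replicate 2 (then at adjusted p = 0.301), control replicate 3 (0.0622), mtAsn-1 replicate 1 (0.0515), mtAsn-2 replicate 2 (0.0524), mtLys replicate 1 (0.234) or mtLys replicate 2 (0.0547), with DESeq2 (0.0839) and with no filter (0.0734). The mtAsn-1 difference passed without control replicate 1 (then at adjusted p = 0.0276) or mtAsn-1 replicate 3 (0.031). The nuclease of the complex, PRORP, which is not one of the 10, was chosen after its values were seen. It was higher with mtAsn-1 (0.21 ± 0.0556, adjusted p = 0.00253) and with mtLys (0.21 ± 0.0536, adjusted p = 0.00149), and its value was -0.10 ± 0.0544 for mtAsn-2 (adjusted p = 0.126). Its exons share 310 bases with those of PPP2R3C on the opposite strand.

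The enzymes of the 3′ end moved apart. ELAC2, the nuclease that trims it, was the gene of the set with the most reads. ELAC2 (chromosome 17, 12991612 to 13018064, minus strand of hg38) stood at 145, 148 and 147 CPM in the mtAsn-1 libraries, 171, 160.5 and 164 CPM in the mtAsn-2 libraries and 148, 161 and 149.6 CPM in the mtLys libraries, against 141, 142 and 137 CPM in the control libraries. Every library of each LNA group was above every control library, and the mtAsn-2 libraries were highest, though one mtLys library lay among them. The rise was 0.23 ± 0.0412 for mtAsn-2 (adjusted p = 2.2e-05) and 0.13 ± 0.0413 for mtLys (adjusted p = 0.0131). With mtAsn-1 the value was 0.06 ± 0.042 (adjusted p = 0.218). The mtLys call was lost without control replicate 3 (then at adjusted p = 0.0556) or mtLys replicate 2 (0.0972). The exons of ELAC2 share 33 bases with ARHGAP44, which had 6 to 19 reads.

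TRNT1, which adds the CCA end, fell with each LNA, and with mtLys it had the largest change of any of the 10. TRNT1 (chromosome 3, 3126937 to 3153435, plus strand of hg38) stood at 17.9, 14.4 and 15.9 CPM in the mtAsn-1 libraries, 19.1, 19.5 and 19.0 CPM in the mtAsn-2 libraries and 14.4, 16.5 and 12.7 CPM in the mtLys libraries, against 22.7, 22.2 and 23.8 CPM in the control libraries. No library of any LNA group reached the lowest control library. The log2 fold change was -0.51 ± 0.0832 for mtAsn-1 (adjusted p = 1.08e-05), -0.25 ± 0.0772 for mtAsn-2 (adjusted p = 0.00766) and -0.65 ± 0.0798 for mtLys (adjusted p = 1.25e-07), and none of the 19 alternative settings ended a call. TRNT1 shares 1394 of its 7152 exonic bases with CRBN on the opposite strand, and whether reads were counted by strand is not given in the sources used here. CRBN, with 295 to 715 reads per library, had log2 fold changes of -0.24 ± 0.077 for mtAsn-1 (adjusted p = 0.00983), -0.12 ± 0.0722 for mtAsn-2 (adjusted p = 0.164) and -0.12 ± 0.0724 for mtLys (adjusted p = 0.193). The mtAsn-1 call of CRBN was lost without control replicate 2 (then at adjusted p = 0.126). The other CRBN values passed without control replicate 1, at 0.0271 for mtAsn-2 and 0.0334 for mtLys. The part of CRBN reads in the TRNT1 values was not tested.

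**Figure D2:**
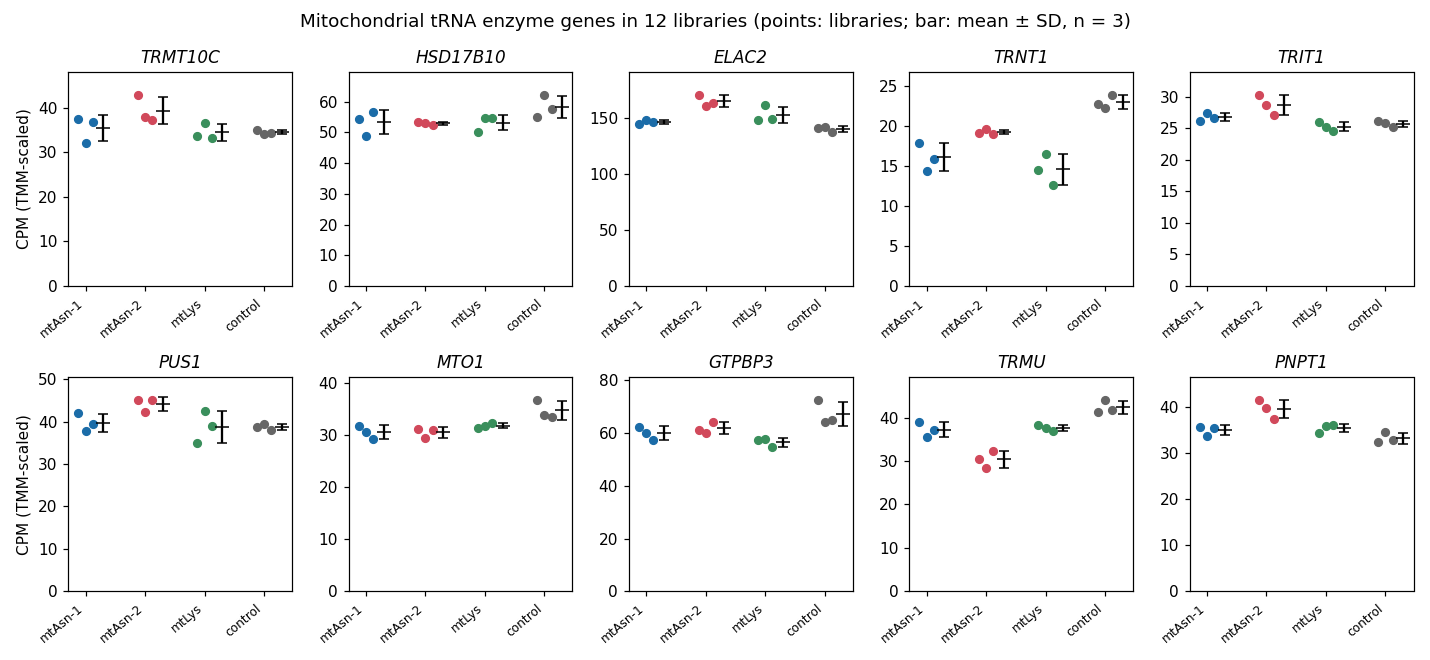
CPM of each of the 10 genes in every library, with mtAsn-1, mtAsn-2, mtLys and control LNA from left to right and a bar of the mean ± SD beside the points of each group. TRNT1 averaged 14.5 ± 1.92 CPM with mtLys and 22.9 ± 0.838 with control (SD, n = 3 each), and TRMU 30.4 ± 1.99 CPM with mtAsn-2 and 42.3 ± 1.48 with control.

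The 3 enzymes of the wobble uridine were each lower with both asparagine LNAs, and TRMU and GTPBP3 were also lower with mtLys. MTO1 with mtLys just missed the threshold (-0.13 ± 0.0548, adjusted p = 0.0504). For MTO1, mtLys was not separated from mtAsn-1 (adjusted p = 0.632) or from mtAsn-2 (adjusted p = 0.409). TRMU, the sulphur-transferring enzyme, was lowest with mtAsn-2. TRMU (chromosome 22, 46335714 to 46357340, plus strand of hg38) stood at 38.9, 35.6 and 37.2 CPM in the mtAsn-1 libraries, 30.4, 28.4 and 32.4 CPM in the mtAsn-2 libraries and 38.4, 37.7 and 37.0 CPM in the mtLys libraries, against 41.3, 44.0 and 41.7 CPM in the control libraries. The mtAsn-2 libraries lay below every library of the other groups, and the mtAsn-1 and mtLys libraries lay between them and the controls. The fall was -0.48 ± 0.0553 for mtAsn-2 (adjusted p = 2.53e-08), -0.19 ± 0.0566 for mtAsn-1 (adjusted p = 0.00783) and -0.17 ± 0.0544 for mtLys (adjusted p = 0.0114). Without control replicate 2 the smaller calls were lost, with adjusted p = 0.0546 for mtAsn-1 and 0.0775 for mtLys.

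GTPBP3, the GTPase partner of MTO1, was lowest with mtLys. GTPBP3 (chromosome 19, 17334982 to 17342731, plus strand of hg38) stood at 62.4, 59.9 and 57.3 CPM in the mtAsn-1 libraries, 61.2, 60.0 and 64.3 CPM in the mtAsn-2 libraries and 57.2, 57.7 and 54.6 CPM in the mtLys libraries, against 72.5, 64.3 and 65.1 CPM in the control libraries. The mtLys and mtAsn-1 libraries lay below every control library, while the highest mtAsn-2 library reached the lowest control library. The fall was -0.25 ± 0.0513 for mtLys (adjusted p = 0.000177), -0.17 ± 0.0527 for mtAsn-1 (adjusted p = 0.00833) and -0.12 ± 0.0509 for mtAsn-2 (adjusted p = 0.0455). The mtAsn-1 call was lost without control replicate 1 (then at adjusted p = 0.0937) or mtAsn-1 replicate 3 (0.0642). That for mtAsn-2 was lost without control replicate 1 (then at adjusted p = 0.344), mtAsn-2 replicate 1 (0.128), mtAsn-2 replicate 2 (0.196), mtLys replicate 1 (0.0559), mtLys replicate 2 (0.0689) or mtLys replicate 3 (0.0549), with RLE factors (0.061), DESeq2 (0.105), no filter (0.195), a stricter filter (0.0538) and the compared groups alone (0.0992).

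MTO1, the flavin-dependent partner of GTPBP3, changed by about the same amount with both asparagine LNAs. MTO1 (chromosome 6, 73461737 to 73509236, plus strand of hg38) stood at 31.8, 30.6 and 29.2 CPM in the mtAsn-1 libraries, 31.3, 29.4 and 31.0 CPM in the mtAsn-2 libraries and 31.4, 31.7 and 32.4 CPM in the mtLys libraries, against 36.7, 33.9 and 33.6 CPM in the control libraries. Every LNA library lay below every control library. The log2 fold change was -0.19 ± 0.0574 for mtAsn-1 (adjusted p = 0.00743), -0.19 ± 0.0548 for mtAsn-2 (adjusted p = 0.00536) and -0.13 ± 0.0548 for mtLys (adjusted p = 0.0504). The mtAsn-1 call was lost without control replicate 1 (then at adjusted p = 0.0597) or mtAsn-1 replicate 3 (0.0595) and the mtAsn-2 call without control replicate 1 (then at adjusted p = 0.054). The mtLys value passed without control replicate 3 (then at adjusted p = 0.0444) or mtAsn-1 replicate 2 (0.0474), with a stricter filter (0.0371) and with the compared groups alone (0.0498).

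The remaining modification enzymes, TRIT1 and PUS1, were higher with mtAsn-2. TRIT1 (chromosome 1, 39838110 to 39883511, minus strand of hg38) stood at 26.2, 27.4 and 26.6 CPM in the mtAsn-1 libraries, 30.3, 28.7 and 27.1 CPM in the mtAsn-2 libraries and 26.0, 25.2 and 24.5 CPM in the mtLys libraries, against 26.1, 25.8 and 25.2 CPM in the control libraries. The lowest mtAsn-2 library was above every control library. So was the lowest mtAsn-1 library, by a margin much smaller than the SD, while the mtLys libraries overlapped the controls. TRIT1 changed by 0.16 ± 0.0574 for mtAsn-2 (adjusted p = 0.0229), with values of 0.05 ± 0.0605 for mtAsn-1 (adjusted p = 0.49) and -0.02 ± 0.0582 for mtLys (adjusted p = 0.756). The mtAsn-2 call was lost without control replicate 2 (then at adjusted p = 0.05004), control replicate 3 (0.0664) or mtAsn-2 replicate 1 (0.117).

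PUS1 (chromosome 12, 131929268 to 131945896, plus strand of hg38) stood at 42.0, 37.8 and 39.5 CPM in the mtAsn-1 libraries, 45.1, 42.3 and 45.0 CPM in the mtAsn-2 libraries and 34.9, 42.5 and 38.9 CPM in the mtLys libraries, against 38.7, 39.4 and 38.0 CPM in the control libraries. The mtAsn-2 libraries lay above the controls, and the mtLys libraries spread over the range of both. PUS1 changed by 0.19 ± 0.0599 for mtAsn-2 (adjusted p = 0.00942), with values of 0.04 ± 0.0627 for mtAsn-1 (adjusted p = 0.635) and 0.000893 ± 0.0606 for mtLys (adjusted p = 0.993).

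PNPT1, the RNA-degrading phosphorylase, was higher with mtAsn-2. PNPT1 (chromosome 2, 55634061 to 55693853, minus strand of hg38) stood at 35.5, 33.6 and 35.4 CPM in the mtAsn-1 libraries, 41.4, 39.6 and 37.4 CPM in the mtAsn-2 libraries and 34.3, 35.7 and 36.1 CPM in the mtLys libraries, against 32.2, 34.5 and 32.7 CPM in the control libraries. The mtAsn-2 libraries lay above every library of the other groups, and the mtAsn-1 and mtLys libraries overlapped the controls. The rise was 0.25 ± 0.0537 for mtAsn-2 (adjusted p = 0.000257), and the values were 0.07 ± 0.0565 for mtAsn-1 (adjusted p = 0.3) and 0.09 ± 0.0543 for mtLys (adjusted p = 0.166). The pseudogene PNPT1P1 had 0 to 8 reads per library.

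Counted over the set, 4 of the 10 genes were lower and 0 higher with mtAsn-1, while over all tested genes 24.2% were lower and 24.3% higher (together 48.5%). In the mtAsn-2 comparison 5 were higher and 5 lower, while over all tested genes 24.1% were higher and 27.0% lower (together 51.1%). In the mtLys comparison 1 was higher and 4 lower, while over all tested genes 24.6% were higher and 23.9% lower (together 48.5%). Among the 6477 genes whose mean CPM lay in the range of the 10, the called share was 60.5% for mtAsn-1, 62.6% for mtAsn-2 and 58.5% for mtLys, and the mtAsn-1 and mtLys counts of the set lay near the background. The libraries did not overlap the controls for 6 genes with mtAsn-1, 9 genes with mtAsn-2 and 6 genes with mtLys, beside 53.8%, 56.8% and 56.3% of all tested genes. The changes were small: the median size of the log2 fold change over the 10 was 0.0987 for mtAsn-1, 0.189 for mtAsn-2 and 0.128 for mtLys, against 0.23, 0.239 and 0.218 over all tested genes. The signed medians were -0.04 for mtAsn-1, 0.02 for mtAsn-2 and -0.08 for mtLys. The mtAsn-2 count fell to 6 (3 higher and 3 lower) without mtAsn-2 replicate 1. The mtLys count fell to 3 without control replicate 2 or without mtLys replicate 2. Of the 19 calls against control, 8 held under every one of the 19 alternative settings: TRNT1 with each LNA, GTPBP3 with mtLys, and ELAC2, TRMU, PUS1 and PNPT1 with mtAsn-2.

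**Figure D3:**
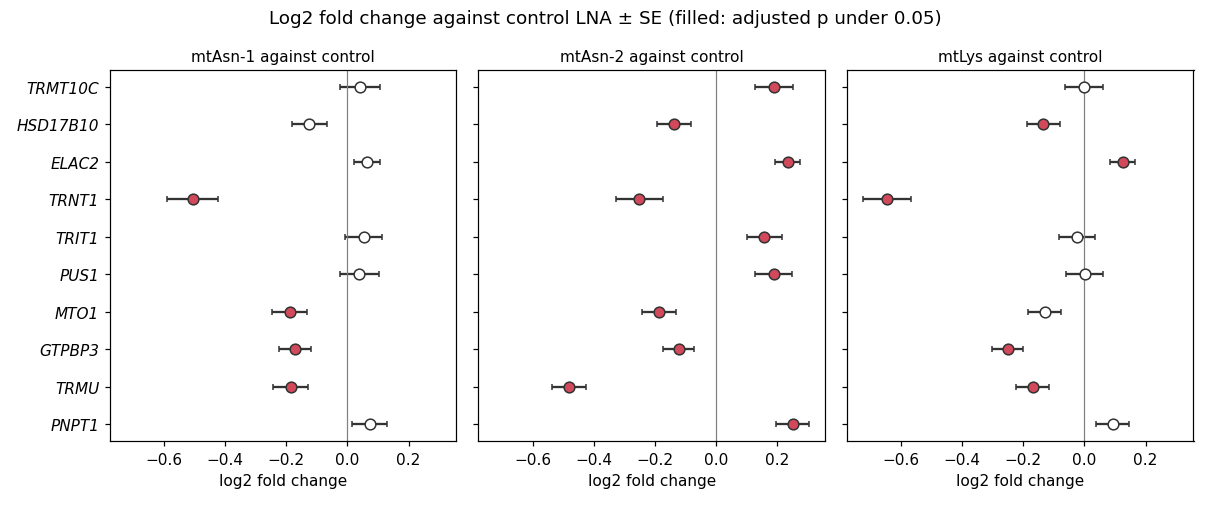
Log2 fold change against control LNA of the 10 genes, with bars of 1 SE and filled points where the adjusted p was under 0.05, for mtAsn-1, mtAsn-2 and mtLys. TRNT1 is at -0.51, -0.25 and -0.65, while TRMU is lowest with mtAsn-2 at -0.48.

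Direct comparisons asked which LNAs differed from each other. Between mtAsn-1 and mtLys, 0 of the 10 genes passed the edgeR test, 0 had an unadjusted p under 0.05 and 0 passed with DESeq2. Over all tested genes 2.12% passed upwards and 3.14% downwards (together 5.26%, and 5.65% at the CPM of the 10), so few genes of any kind separated these LNAs. The libraries did not overlap for 1 of the 10, beside 24.1% of all tested genes. The estimates ran from -0.06 to 0.14, and TRNT1 had the largest, 0.14 ± 0.085, adjusted p = 0.405.

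Between mtAsn-1 and mtAsn-2, 1 gene was higher and 4 were lower with mtAsn-1, while over all tested genes 24.6% were higher and 21.9% lower (together 46.5%, and 58.2% at the CPM of the 10). The libraries did not overlap for 5 of the 10, beside 52.7% of all tested genes. TRMU averaged 37.3 ± 1.66 CPM with mtAsn-1 and 30.4 ± 1.99 CPM with mtAsn-2 (SD, n = 3 each), a log2 fold change of 0.30 ± 0.0568, adjusted p = 9.01e-05. The lower genes were TRNT1 (-0.26 ± 0.0823, adjusted p = 0.0119), ELAC2 (-0.17 ± 0.0413, adjusted p = 0.00117), PNPT1 (-0.18 ± 0.0543, adjusted p = 0.00802) and PUS1 (-0.15 ± 0.0606, adjusted p = 0.044). TRMT10C fell short at -0.15 ± 0.0629, adjusted p = 0.0563, and passed with RLE factors (0.0453), no filter (0.0172), a stricter filter (0.0398) and without mtAsn-1 replicate 1 (then at adjusted p = 0.0404), mtAsn-2 replicate 2 (0.043), mtAsn-2 replicate 3 (0.0255) or mtLys replicate 2 (0.0448). The count fell to 3 without mtAsn-1 replicate 2, where TRNT1 stood at adjusted p = 0.0694 and PUS1 at 0.152. The PUS1 call was also lost with DESeq2 (0.0643) and without mtAsn-1 replicate 3 (then at adjusted p = 0.107), mtAsn-2 replicate 1 (0.105), mtAsn-2 replicate 3 (0.103) or mtLys replicate 3 (0.0538).

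Between mtAsn-2 and mtLys, 7 genes were higher and 1 was lower with mtAsn-2, while over all tested genes 22.9% were higher and 25.7% lower (together 48.6%, and 58.9% at the CPM of the 10). The libraries did not overlap for 7 of the 10, beside 56.6% of all tested genes. TRNT1 averaged 19.2 ± 0.276 CPM with mtAsn-2 and 14.5 ± 1.92 CPM with mtLys (SD, n = 3 each), a log2 fold change of 0.40 ± 0.0787, adjusted p = 0.000132, and the libraries did not overlap. TRMU was lower with mtAsn-2, at -0.31 ± 0.0545, adjusted p = 2.47e-05. The other higher genes were TRMT10C (0.19 ± 0.0606, adjusted p = 0.0102), PUS1 (0.19 ± 0.0585, adjusted p = 0.00887), TRIT1 (0.18 ± 0.0558, adjusted p = 0.00806), PNPT1 (0.16 ± 0.052, adjusted p = 0.0124), GTPBP3 (0.13 ± 0.0506, adjusted p = 0.036) and ELAC2 (0.11 ± 0.0406, adjusted p = 0.0273). Each of these calls other than those of TRNT1 and TRMU was lost without at least 1 library. The count fell to 4 without mtAsn-2 replicate 1 and to 4 without mtLys replicate 1. Without mtAsn-2 replicate 1 the adjusted p was 0.103 for TRMT10C, 0.115 for ELAC2, 0.058 for TRIT1 and 0.0717 for PNPT1. Without mtLys replicate 1 it was 0.146 for ELAC2, 0.0696 for PNPT1, 0.0628 for GTPBP3 and 0.131 for PUS1. Without mtLys replicate 3, 5 genes passed, with TRMT10C at 0.0548, ELAC2 at 0.111 and GTPBP3 at 0.14. GTPBP3 was also lost without mtAsn-2 replicate 3 (then at adjusted p = 0.136).

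**Figure D4:**
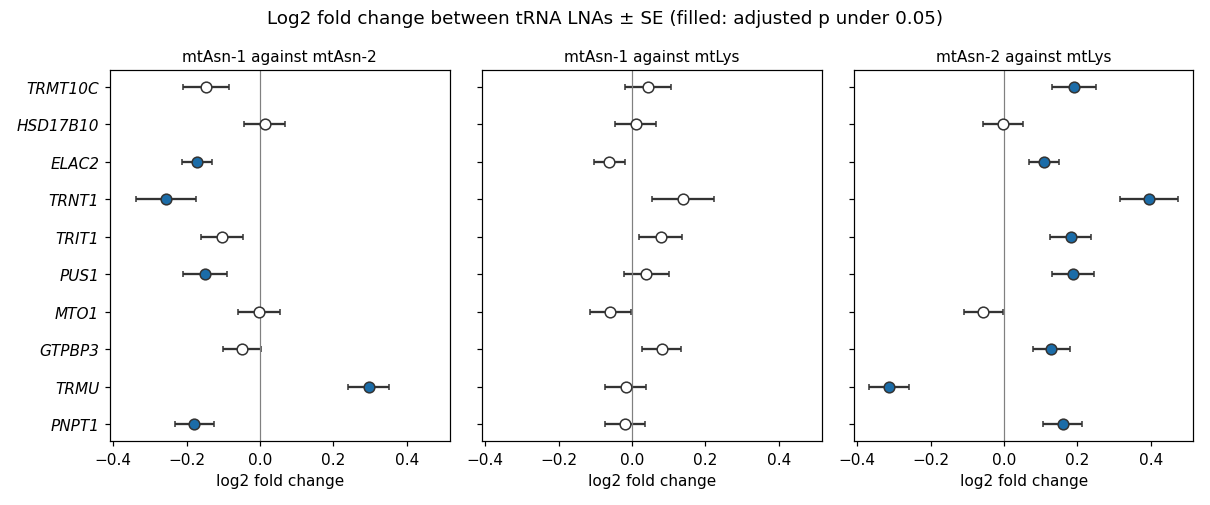
Log2 fold change between LNAs of the 10 genes, with bars of 1 SE and filled points where the adjusted p was under 0.05, for mtAsn-1 over mtAsn-2, mtAsn-1 over mtLys and mtAsn-2 over mtLys. TRMU lies at 0.30 for mtAsn-1 over mtAsn-2 and at -0.31 for mtAsn-2 over mtLys, and the mtAsn-1 over mtLys values stay between -0.06 and 0.14.

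Across the 12 libraries some pairs of the 10 genes went together, some ran opposite and others were near 0, such as TRMT10C and HSD17B10 (0.05). The strongest pairs are given as a description because the libraries share the same group differences and scaling. ELAC2 and PNPT1 went together (Pearson r = 0.87 on log2 CPM), as did TRNT1 and GTPBP3 (0.85). TRMU ran against PNPT1 (-0.85) and ELAC2 (-0.84). Within groups, on deviations from the group means, the values for TRMU were 0.03 with PNPT1 and 0.08 with ELAC2. The opposition of TRMU to these genes thus lay between the groups and not between libraries of a group. Within groups ELAC2 and PNPT1 stood at 0.33, and TRNT1 and GTPBP3 at 0.34. The highest values within groups were those of MTO1 with GTPBP3 (0.79) and HSD17B10 with PNPT1 (0.76). Over 10843 genes, those most alike in pattern were PPP2R2A (r = 0.979) and TOM1 (r = 0.977) for TRMU, EOGT (r = 0.986) and AHCY (r = 0.970) for PNPT1, NDUFV3 (r = 0.975) and BBIP1 (r = 0.961) for ELAC2, UBQLN4 (r = 0.959) and EIF4BP6 (r = 0.953) for TRNT1 and NR2F6 (r = 0.961) and SCAF1 (r = 0.956) for GTPBP3. For the other 5 genes they were TMED7 (r = 0.950) and TMED5 (r = 0.920) for TRMT10C, SNRNP25 (r = 0.937) and ALYREF (r = 0.906) for HSD17B10, ZNF680 (r = 0.943) and CFAP97 (r = 0.938) for TRIT1, FAM50A (r = 0.943) and CSGALNACT2 (r = 0.932) for MTO1 and DCTPP1 (r = 0.909) and ECSIT (r = 0.908) for PUS1.

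The wider set of genes for mitochondrial tRNA and RNA maturation, 43 genes of which 41 were tested (PTCD1 and MRM1 did not pass the low-count filter), had a called share of 46.3% for the LNA mtAsn-1, 41.5% for mtAsn-2 and 46.3% for mtLys, beside 48.5%, 51.1% and 48.5% of all tested genes. With mtAsn-1 9 were higher and 10 lower (median log2 fold change -0.09), with mtAsn-2 13 were higher and 4 lower (0.10), and with mtLys 8 were higher and 11 lower (-0.06), beside medians of -0.00352, -0.00712 and -0.000542 over all tested genes. Between LNAs, mtAsn-1 over mtAsn-2 gave 7 higher and 17 lower (58.5% called), beside 24.6% higher and 21.9% lower of all tested genes (together 46.5%). For mtAsn-2 over mtLys 15 were higher and 6 lower (51.2% called), beside 22.9% higher and 25.7% lower of all tested genes (together 48.6%). RPUSD3 alone passed for mtAsn-1 over mtLys (0.19 ± 0.0573, adjusted p = 0.0473), which is 2.44% of the list beside 5.26% of all tested genes.

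TRMT2B, a methyltransferase of uridines in mitochondrial tRNA and rRNA, was higher with each LNA, at 0.43 ± 0.0573 for mtAsn-1 (adjusted p = 4.04e-07), 0.41 ± 0.0551 for mtAsn-2 (adjusted p = 3.6e-07) and 0.40 ± 0.0553 for mtLys (adjusted p = 8.41e-07). FASTKD2, which binds mitochondrial RNA including the large rRNA, was higher with mtAsn-1 and mtLys, at 0.45 ± 0.066 for mtAsn-1 (adjusted p = 2.33e-06), 0.15 ± 0.0644 for mtAsn-2 (adjusted p = 0.0543) and 0.37 ± 0.0637 for mtLys (adjusted p = 1.83e-05). The mtAsn-2 value of FASTKD2 passed with RLE factors (0.0438), no filter (0.0319), a stricter filter (0.0381) and the compared groups alone (0.0482), and without control replicate 2 (then at adjusted p = 0.0242), mtAsn-1 replicate 2 (0.0448), mtAsn-2 replicate 3 (0.0366) or mtLys replicate 2 (0.0448). TFB1M, a methyltransferase of the small rRNA, was higher with mtAsn-1 and mtLys, at 0.57 ± 0.0894 for mtAsn-1 (adjusted p = 5.15e-06), 0.11 ± 0.088 for mtAsn-2 (adjusted p = 0.3) and 0.44 ± 0.0859 for mtLys (adjusted p = 0.000116). Its exons share 1395 bases with TIAM2 on the opposite strand, which had 173 to 395 reads. LRPPRC, which stabilises mitochondrial mRNA, was higher with each LNA, at 0.17 ± 0.0463 for mtAsn-1 (adjusted p = 0.00273), 0.43 ± 0.0455 for mtAsn-2 (adjusted p = 5.07e-09) and 0.22 ± 0.0456 for mtLys (adjusted p = 0.000194). CDK5RAP1, which adds a methylthio group to the isopentenyl adenosine that TRIT1 makes, was higher with mtAsn-2, at 0.07 ± 0.0494 for mtAsn-1 (adjusted p = 0.238), 0.26 ± 0.0474 for mtAsn-2 (adjusted p = 4.39e-05) and 0.07 ± 0.0479 for mtLys (adjusted p = 0.21).

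NSUN2, a cytosine methyltransferase of tRNAs, was the gene of the list with the largest fall. It stood at 121, 113 and 130.1 CPM in the mtAsn-1 libraries, 92.8, 83.2 and 86.4 CPM in the mtAsn-2 libraries and 126, 131 and 129 CPM in the mtLys libraries, against 143, 153 and 145 CPM in the control libraries. The mtAsn-2 libraries lay far below the rest. NSUN2 changed by -0.27 ± 0.0488 for mtAsn-1 (adjusted p = 3.39e-05), -0.75 ± 0.0486 for mtAsn-2 (adjusted p = 3.13e-13) and -0.20 ± 0.0479 for mtLys (adjusted p = 0.00122). NFS1, the cysteine desulphurase that provides the sulphur for TRMU, was lower with each LNA, at -0.33 ± 0.0531 for mtAsn-1 (adjusted p = 7.68e-06), -0.27 ± 0.0509 for mtAsn-2 (adjusted p = 6.8e-05) and -0.21 ± 0.0509 for mtLys (adjusted p = 0.00138). PDE12, which removes poly(A) from mitochondrial RNA, was lower with each LNA, at -0.22 ± 0.0561 for mtAsn-1 (adjusted p = 0.00171), -0.36 ± 0.0546 for mtAsn-2 (adjusted p = 2.31e-06) and -0.15 ± 0.0543 for mtLys (adjusted p = 0.0223). The mtLys call of PDE12 was lost without control replicate 1 (then at adjusted p = 0.0885), mtLys replicate 1 (0.121) or mtLys replicate 3 (0.0678). OSGEPL1, of the threonyl-carbamoyl adenosine pathway, was lower with mtAsn-2 and mtLys, at -0.24 ± 0.107 for mtAsn-1 (adjusted p = 0.0601), -0.37 ± 0.101 for mtAsn-2 (adjusted p = 0.0032) and -0.32 ± 0.101 for mtLys (adjusted p = 0.00959). Its mtLys call was lost without control replicate 2 (then at adjusted p = 0.104) or mtLys replicate 2 (0.125), and its mtAsn-1 value passed without control replicate 1 (then at adjusted p = 0.0453) or mtLys replicate 2 (0.034). With mtAsn-2, NSUN2, NFS1, PDE12 and OSGEPL1 were the 4 lower genes of the list. FASTKD5, which is needed for some of the cuts without a tRNA, was lower with mtAsn-1 and mtLys, at -0.39 ± 0.0688 for mtAsn-1 (adjusted p = 3.19e-05), -0.15 ± 0.0643 for mtAsn-2 (adjusted p = 0.0528) and -0.29 ± 0.0651 for mtLys (adjusted p = 0.000493). The mtAsn-2 value of FASTKD5 passed without mtAsn-1 replicate 2 (then at adjusted p = 0.0457), mtAsn-2 replicate 1 (0.0343) or mtLys replicate 1 (0.0495). YRDC, of the same pathway as OSGEPL1, was lower with mtAsn-1 and mtLys and higher with mtAsn-2, at -0.28 ± 0.0634 for mtAsn-1 (adjusted p = 0.000693), 0.16 ± 0.0592 for mtAsn-2 (adjusted p = 0.0297) and -0.26 ± 0.0608 for mtLys (adjusted p = 0.000779). The mtAsn-2 call of YRDC was lost without control replicate 1 (then at adjusted p = 0.138), control replicate 3 (0.136), mtAsn-2 replicate 1 (0.14) or mtAsn-2 replicate 2 (0.0527). Exons of FASTKD2 share 3713 bases with CPO, which had 8 to 36 reads, those of FASTKD5 100 bases with UBOX5, and those of YRDC 417 bases with C1orf122. Exons of NFS1 share 43 of 3130 bases with ROMO1 on the opposite strand, which had 1331 to 3119 reads. The reads of these pairs may therefore be shared.

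The exchange enzyme of the asparagine wobble base, the QTRT1 and QTRT2 pair, was chosen after its values were seen. With mtAsn-2 both were higher, QTRT1 by 0.26 ± 0.0559 (adjusted p = 0.000241) and QTRT2 by 0.37 ± 0.0694 (adjusted p = 5.87e-05). With mtAsn-1 QTRT1 stood at -0.10 ± 0.0591 (adjusted p = 0.159) and QTRT2 at -0.04 ± 0.0746 (adjusted p = 0.69). With mtLys QTRT1 stood at -0.06 ± 0.0569 (adjusted p = 0.422) and QTRT2 at 0.05 ± 0.071 (adjusted p = 0.57). The mtAsn-1 value of QTRT2 turned to 0.05 without mtAsn-1 replicate 2.

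**Figure D5:**
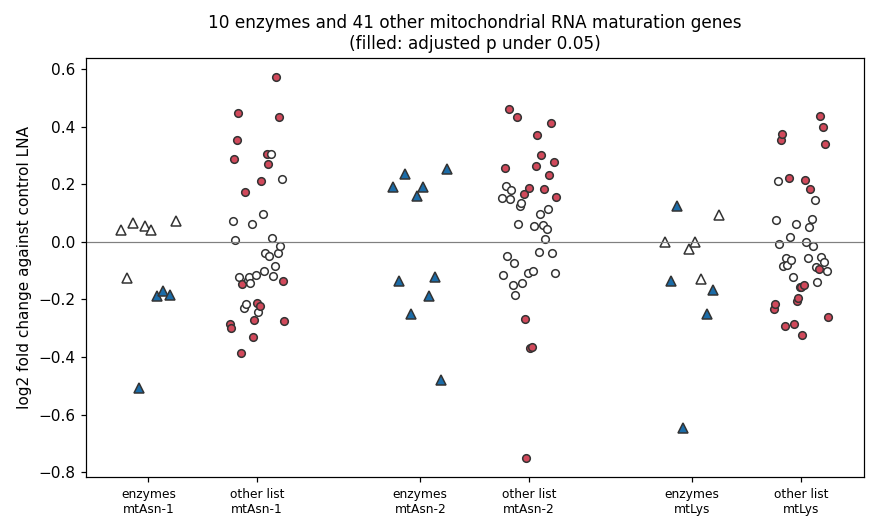
Log2 fold change against control LNA for mtAsn-1, mtAsn-2 and mtLys, with a triangle for each of the 10 enzymes and a circle for each of the 41 tested genes of the wider maturation list, filled where the adjusted p was under 0.05. The medians of the wider list lie at -0.09, 0.10 and -0.06, and NSUN2 with mtAsn-2 is the lowest point at -0.75.

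The RNAs on which these enzymes work were read only in part. Summed over 22 mitochondrial tRNA genes, the libraries held 306, 289 and 380 CPM with mtAsn-1, 349, 380 and 328 CPM with mtAsn-2 and 364, 380 and 361 CPM with mtLys, against 307, 298 and 288 CPM with control. Every mtAsn-2 and mtLys library lay above every control library, and the mtAsn-1 libraries spread over both ranges. TRNE, the glutamate tRNA gene, held much of these sums, with 118, 126 and 157 CPM with mtAsn-1, 129, 150.3 and 114 CPM with mtAsn-2 and 161, 159 and 151 CPM with mtLys, against 105, 110.1 and 89.6 CPM with control. Without TRNE, a gene singled out after the values were seen, the sums were 189, 163 and 223 CPM with mtAsn-1, 219.8, 229.7 and 213 CPM with mtAsn-2 and 202, 221 and 209.8 CPM with mtLys, against 202, 188 and 199 CPM with control. The lowest mtLys library was then less than 1 CPM above the highest control library. Of the 18 tRNA and rRNA genes tested, the share called was 11.1% for the LNA mtAsn-1, 27.8% for mtAsn-2 and 22.2% for mtLys, beside 48.5%, 51.1% and 48.5% of all tested genes, and 1 was higher and 1 lower with mtAsn-1 (TRNE 0.40 ± 0.135, adjusted p = 0.0375, TRNF -1.03 ± 0.362, adjusted p = 0.0198). With mtAsn-2 5 were higher and 0 lower: TRNG (0.37 ± 0.0857, adjusted p = 0.000754), TRNL2 (0.35 ± 0.111, adjusted p = 0.00902), TRNM (0.28 ± 0.107, adjusted p = 0.0291), TRNE (0.36 ± 0.133, adjusted p = 0.047) and TRNK (0.44 ± 0.152, adjusted p = 0.0205). With mtLys 4 were higher and 0 lower: TRNE (0.63 ± 0.133, adjusted p = 0.00381), TRNW (0.32 ± 0.108, adjusted p = 0.0147), TRNG (0.22 ± 0.0868, adjusted p = 0.0358) and TRNY (0.21 ± 0.084, adjusted p = 0.0398). Of these 11 calls, those of TRNG with mtAsn-2 and TRNE with mtLys held without each library in turn. The others were each lost without at least one: TRNL2 without control replicate 2 (then at adjusted p = 0.0646), TRNK without control replicate 2 (then at adjusted p = 0.0872), control replicate 3 (0.0625), mtAsn-2 replicate 1 (0.0559) or mtAsn-2 replicate 2 (0.0913), TRNM without control replicate 2 (then at adjusted p = 0.17), control replicate 3 (0.0583) or mtAsn-2 replicate 2 (0.157), TRNW without control replicate 2 (then at adjusted p = 0.0819), mtLys replicate 1 (0.0608) or mtLys replicate 3 (0.0516), TRNG with mtLys without control replicate 1 (then at adjusted p = 0.0808), control replicate 2 (0.245), mtLys replicate 2 (0.133) or mtLys replicate 3 (0.0558) and TRNY without control replicate 1 (then at adjusted p = 0.101), control replicate 2 (0.15), mtLys replicate 2 (0.0507) or mtLys replicate 3 (0.214). TRNF with mtAsn-1 was lost without control replicate 1 (then at adjusted p = 0.0908), control replicate 3 (0.0747), mtAsn-1 replicate 1 (0.0748) or mtAsn-1 replicate 2 (0.0633). TRNF had only 6, 5 and 14 reads in the mtAsn-1 libraries, against 25, 15 and 19 in the control libraries. The highest mtAsn-1 library, at 0.503 CPM, lay above the lowest control library, at 0.487 CPM. TRNE was lost in the mtAsn-1 comparison without control replicate 1 (then at adjusted p = 0.0755), control replicate 3 (0.11), mtAsn-1 replicate 2 (0.0583), mtAsn-1 replicate 3 (0.0992), mtAsn-2 replicate 1 (0.0533), mtLys replicate 1 (0.0523), mtLys replicate 2 (0.0549) or mtLys replicate 3 (0.0515), and in the mtAsn-2 comparison without control replicate 1 (then at adjusted p = 0.0907), control replicate 2 (0.0505), control replicate 3 (0.138), mtAsn-1 replicate 2 (0.064), mtAsn-2 replicate 1 (0.0823), mtAsn-2 replicate 2 (0.123), mtLys replicate 1 (0.0638), mtLys replicate 2 (0.0627) or mtLys replicate 3 (0.0626). With DESeq2, the calls of TRNF with mtAsn-1 (0.0513), TRNM with mtAsn-2 (0.0582), and TRNG (0.0656) and TRNY (0.0839) with mtLys were lost, by adjusted p. With no filter, the TRNE calls with mtAsn-1 (0.0789) and mtAsn-2 (0.0762) were lost.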

How the data were processed

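Deposited values were raw counts of reads per gene in 12 libraries, without normalisation. TruSeq RNA libraries came from total RNA, per the labels, and the submitters' processing notes list FastQC, STAR 2.6.0a, featureCounts, DESeq2 and hg38 without roles. The sources used here state neither strandedness nor how reads with several matches were treated. Of 52897 lines, 52859 genes were used, and 12 broken gene lines with 26 fragments were left out. Groups came from the labels. The deposited exon length per gene, a value of another kind, was used only for levels per kilobase.

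Counts were fitted with edgeR 4.0.16 in R 4.3.3, after TMM scaling and filterByExpr (by group: the CPM that matches its minimum count of 10 reached in at least 3 libraries, and at least 15 reads in total). A single robust quasi-likelihood model covered the 12 libraries, and p-values of its F tests were adjusted over all tested genes of a comparison by Benjamini and Hochberg (threshold 0.05). The SE was worked out by dividing the size of a log2 fold change by the root of its F, and SD over a group's 3 libraries. Reads numbered 20697370, 17978825 and 28314164 (mtAsn-1), 34832707, 30524246 and 31553676 (mtAsn-2), 37708993, 34584704 and 27316004 (mtLys) and 27067977, 31112975 and 18826253 (control). Replicates correlated at 0.993 to 0.996, and none was a copy of another (chi-square per gene at least 2.43).

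As alternatives, DESeq2 1.42.0, RLE factors, no filter, a stricter filter, a replicate block, scaling without mitochondrial genes, the compared groups alone and each of 12 libraries left out in turn were tried. The members and lists were chosen with earlier results of these data known. Named genes were the 10 members, up to 3 higher and 3 lower list genes with the smallest adjusted p per comparison with control, genes behind counts of 5 or fewer, and the 2 genes most alike each member. Mitochondrial tRNA genes, named TRNx in the table, were matched by chromosome. Promoters came from RefSeq and tRNA genes from GENCODE 29. Tables used pandas 2.3.3 and numpy 2.4.6 under Python 3.11.15, and plots used matplotlib 3.10.9.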

Additional observations from a re-analysis of the deposited data

How the results depend on the processing

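Of 60 member fold changes under 19 alternatives (1140 values), 1030 kept their direction and side of the threshold, 65 lost a call, 13 gained one and 32 changed sign, and none of these sign changes involved a value that passed the test before or after. The count of called members moved by over 1.5 times only when a library was left out: it ranged from 3 to 4 for mtAsn-1 against control, 6 to 10 for mtAsn-2, 3 to 6 for mtLys, 3 to 6 for mtAsn-1 against mtAsn-2 and 4 to 8 for mtAsn-2 against mtLys, and stayed at 0 for mtAsn-1 against mtLys. The single list gene called for mtAsn-1 against mtLys was not called with DESeq2, a stricter filter or the compared groups alone (0 each), nor in some fits without a library (0 to 1). Replicate numbers did not pair the samples, since deviations of libraries with the same number correlated at -0.0991 to 0.0417. With the replicate block the called members numbered 4, 8 and 4 against control for mtAsn-1, mtAsn-2 and mtLys, and 4, 0 and 8 for mtAsn-1 against mtAsn-2, mtAsn-1 against mtLys and mtAsn-2 against mtLys. The list counts with the block were 19, 17, 18, 24, 0 and 21 in the same order. Calls lost with the block, by adjusted p, were HSD17B10 with mtAsn-2 (0.051) and mtLys (0.0589), GTPBP3 with mtAsn-2 (0.0588), PUS1 in mtAsn-1 against mtAsn-2 (0.0629), and TRNE with mtAsn-1 (0.0536) and mtAsn-2 (0.0682).

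The sign changes were of values near 0. HSD17B10 in mtAsn-2 against mtLys was -0.00311, and 0.00477 with RLE factors, 0.00413 with DESeq2, 0.0145 with no filter, 0.00295 with a stricter filter and 0.00313 with the compared groups alone. TRMT10C in mtLys against control turned to 0.00951 with no filter and 0.000532 with the compared groups alone, PUS1 in mtLys against control to -0.000503 with a stricter filter, and HSD17B10 in mtAsn-1 against mtAsn-2 to -0.0117 with no filter. Leaving out a library gave -0.0418 to 0.0249 for TRMT10C and -0.0672 to 0.0763 for PUS1 in mtLys against control. In mtAsn-1 against mtAsn-2 it gave -0.0338 to 0.0678 for HSD17B10 and -0.0363 to 0.0317 for MTO1. In mtAsn-1 against mtLys it gave -0.0364 to 0.0652 for HSD17B10, -0.0475 to 0.0119 for TRMU, -0.0353 to 0.109 for PUS1 and -0.0413 to 0.00441 for PNPT1. It gave -0.0441 to 0.0208 for HSD17B10 in mtAsn-2 against mtLys, and -0.0978 to 0.048 for QTRT2 in mtAsn-1 against control. The cause was not tested. Mitochondrial tRNA genes have few reads, which limits MT-TN most.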

Other observations

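Of 8 nuclear genes for the transcription of mitochondrial DNA, mtAsn-1 had 0 higher and 4 lower, mtAsn-2 had 1 higher and 1 lower, and mtLys had 0 higher and 4 lower. The share called was 50% for the LNA mtAsn-1, 25% for mtAsn-2 and 50% for mtLys, beside 48.5%, 51.1% and 48.5% of all tested genes. POLRMT, the mitochondrial RNA polymerase, was at -0.15 ± 0.0492 for mtAsn-1 (adjusted p = 0.0157), -0.22 ± 0.0483 for mtAsn-2 (adjusted p = 0.000332) and -0.30 ± 0.0485 for mtLys (adjusted p = 9.66e-06). TFAM, which packages mitochondrial DNA and helps start transcription, was lower with mtAsn-1 (-0.25 ± 0.0592, adjusted p = 0.000939) and mtLys (-0.27 ± 0.0577, adjusted p = 0.000413). TFB2M, the start-site melting factor, was lower with mtAsn-1 (-0.35 ± 0.0859, adjusted p = 0.00127) and mtLys (-0.24 ± 0.0805, adjusted p = 0.0157). MTERF2 was lower with mtAsn-1 (-0.33 ± 0.102, adjusted p = 0.0078) and mtLys (-0.35 ± 0.0958, adjusted p = 0.0031). It shares 1182 of its 7402 exonic bases with TMEM263 on the opposite strand. TMEM263 had 801 to 1757 reads per library and MTERF2 149 to 336, so reads of MTERF2 may be shared. MTERF3 was higher with mtAsn-2 (0.21 ± 0.0592, adjusted p = 0.00407). The mtAsn-1 call of POLRMT was lost without control replicate 1 (then at adjusted p = 0.198) or mtAsn-1 replicate 3 (0.0983), and the mtLys call of TFB2M without control replicate 2 (then at adjusted p = 0.209) or mtLys replicate 2 (0.0595).

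Genes of cytosolic tRNA maturation were tested for 50 of 54. With mtAsn-1 7 were higher and 9 lower, with mtAsn-2 18 were higher and 6 lower, and with mtLys 6 were higher and 8 lower. The share called was 32% for the LNA mtAsn-1, 48% for mtAsn-2 and 28% for mtLys, beside 48.5%, 51.1% and 48.5% of all tested genes. Between LNAs, mtAsn-1 over mtAsn-2 gave 8 higher and 19 lower (54% called), beside 24.6% higher and 21.9% lower of all tested genes (together 46.5%). For mtAsn-2 over mtLys 20 were higher and 7 lower (54% called), beside 22.9% higher and 25.7% lower of all tested genes (together 48.6%). For mtAsn-1 over mtLys 0 passed the edgeR test, beside 5.26% of all tested genes. There 6 had an unadjusted p under 0.05 and 0 passed with DESeq2. The protein subunits POP1 and POP5 of the nuclear RNase P, chosen after their values were seen, were higher with each LNA. POP1 was at 0.28 ± 0.069 for mtAsn-1 (adjusted p = 0.00148), 0.81 ± 0.0638 for mtAsn-2 (adjusted p = 2.04e-11) and 0.36 ± 0.0657 for mtLys (adjusted p = 4.54e-05), and POP5 at 0.47 ± 0.0758 for mtAsn-1 (adjusted p = 7.44e-06), 0.53 ± 0.0722 for mtAsn-2 (adjusted p = 5.06e-07) and 0.51 ± 0.0725 for mtLys (adjusted p = 1.09e-06). Other protein subunits of that enzyme did not all move this way. Mean CPM with mtAsn-1, mtAsn-2, mtLys and control was 56.1, 61.4, 56.5 and 63.2 for RPP30. For RPP14 it was 9.57, 13.1, 9.81 and 11.6, and for POP4 44.1, 41.7, 43.2 and 41.1. RPP14 was lower with mtAsn-1 (-0.27 ± 0.0879, adjusted p = 0.0117).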
